A study of Mus musculus with 6 samples.

Results

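The comparison set intestinal organoids kept in vitamin A-free medium against vehicle organoids, both at day 4. All deposited barcodes were used: 4963 cells of the vitamin A-free library and 4787 of the vehicle library, together 9750 of the 29565 cells of the series. Organoids are cultures of gut epithelium, here from wild-type C57BL/6 mice with a labelled age of 8 weeks. The series drew on 2 mice in duplicate, and the labels do not say which animal or culture gave which library. From day 0 to 3 all organoids were grown in ENR (R-spondin at 500 ng/ml, noggin and EGF at 100 ng/ml each) with 20% Wnt3a-conditioned medium, 10 µM of the ROCK inhibitor Y-27632 and 3 µM of the GSK3B inhibitor CHIR99021, then in ENR alone. The vehicle organoids received DMSO at day 0 and again at day 3 and were taken after 96 hours. For the vitamin A-free organoids the labels name neither a DMSO treatment nor the medium component that lacked the vitamin, so absence of the vitamin and any difference in solvent or supplement cannot be told apart. Each condition has 1 library, so no test was possible and genes are called higher or lower by size only. The 2 vehicle libraries of day 1 (5576 and 5304 cells, 24 hours after treatment) were the only pair with one label, and they served as the reference for how far libraries of 1 group lay apart. Values of the other day-4 libraries, treated with all-trans retinoic acid (dose 10) or an RXR antagonist (dose 5, both with the unit written as μm in the labels), are given side by side.

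Vitamin A enters enterocytes as carotenoids, through the scavenger receptor Scarb1, or as retinol. The oxygenase Bco1 cleaves carotenoids to retinal, which is reduced to retinol and stored as esters, or oxidised to retinoic acid, the ligand of the nuclear receptors RAR. The homeobox factor Isx is known as a brake on this route: retinoic acid induces it in the intestine, and it represses Bco1 and Scarb1.

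Isx and Bco1 were the lowest and the highest of the genes named in the comparison. The 250 bases before their start sites are shown in full because these genes lie at the opposite ends of the comparison. Sequences are from RefSeq (GRCm38.p6, both on the plus strand of chromosome 8), 5′ to 3′. Capitals mark the motif AGGTCA, the core that RAR, RXR and related receptors bind, on either strand, where TGACCT is the same motif on the other strand.
Isx, chr8:74872924-74873173: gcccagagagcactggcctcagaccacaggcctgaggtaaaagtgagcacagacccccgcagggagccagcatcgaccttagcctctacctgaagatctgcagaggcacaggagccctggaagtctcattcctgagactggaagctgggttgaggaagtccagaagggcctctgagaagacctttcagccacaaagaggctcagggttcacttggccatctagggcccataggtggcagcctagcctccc
Bco1, chr8:117095615-117095864: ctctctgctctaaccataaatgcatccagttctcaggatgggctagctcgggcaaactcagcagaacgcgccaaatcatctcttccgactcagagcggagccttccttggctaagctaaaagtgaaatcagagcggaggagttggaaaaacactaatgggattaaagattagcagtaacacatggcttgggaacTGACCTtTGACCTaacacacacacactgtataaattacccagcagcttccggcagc
The window of Bco1 held 2 copies, which began 56 and 49 bases before the RefSeq start site and form the direct repeat AGGTCANAGGTCA on the minus strand. Gene positions given below are from another annotation, GENCODE M21. There Bco1 starts at 117095854, inside its window, and Isx at 74873173, the last base of its window. The single motif occurred in 14.02% of 32851 RefSeq windows of this length, and this repeat in 11 of them (0.0335%). Repeats with spacers of 2 bases (AGGTCANNAGGTCA) or 5 bases (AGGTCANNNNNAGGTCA) occurred in 3 windows each (0.00913%), none of them a window of the 15 highest or 15 lowest genes. The Isx window held 0 copies in these letters, and variants of the motif were not searched. Among the 15 highest and 15 lowest genes named below, 22 had an entry and 6 held AGGTCA: Bco1, Entpd8, G6pc, Ms4a8a, Papss2 and Slc51a. A match in a window is a description and was not tested as a binding site.

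The vitamin A-free library held 51983914 unique molecular identifiers (UMIs), the vehicle library 52627278, and the day-1 libraries 66406098 and 62823092. Median UMIs per cell were 10011 and 10825 on vitamin A-free medium and vehicle, and median mitochondrial shares were 3.69% and 3.58%. The day-4 pair shared 3 cell barcodes, and other pairs of libraries shared from 2 to 17. Debris and dead cells were removed by FACS before loading, and shares of cells refer to what was kept. Markers of other tissues were close to 0 in both libraries, with Ptprc, Cdh5 and Col3a1 at 0 UMIs. The 12 immune genes summed to 2.52 CPM (a gene's UMIs scaled to the same total in every library) on vitamin A-free medium and 3.71 on vehicle. The fibroblast list summed to 12.8 and 9.92 CPM, most of it Vim (564 and 449 UMIs), and the endothelial list to 9.18 and 10.5 CPM, most of it Lyve1. Xist stood at 712 and 594 CPM, the Y-linked Ddx3y, Eif2s3y and Uty had 0 UMIs in both, and Kdm5d had 4 and 7 UMIs, so this check did not separate the libraries.

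Few genes lay apart between vitamin A-free medium and vehicle, and the 3 farthest apart belong to vitamin A handling. Among 8184 genes with 10 CPM or more in either library, 114 (1.39%) were at least 1.5-fold higher without vitamin A and 111 (1.36%) at least 1.5-fold lower, 225 (2.75%) together, on the scale of log2(CPM + 5). With TMM or DESeq2 scaling the same counts were 56 higher and 199 lower, or 55 and 205, since the median log2 ratio of all genes was 0.08 at equal total UMIs and -0.05 or -0.06 with those factors. At 2-fold, 18 genes (0.22%) were higher and 19 (0.232%) lower, 37 (0.452%) together. Between the day-1 libraries, 177 of 8218 genes (2.15%) were at least 1.5-fold higher in library 2 and 6 (0.073%) lower, 183 (2.23%) together. At 2-fold, 67 (0.815%) lay apart, all of them higher in library 2. A count over both directions together thus did not set the vitamin A-free library apart from the spread within 1 group. The day-1 differences were nearly all in 1 direction, while those of vitamin A-free medium went both ways. Beside the same vehicle library, the RXR antagonist library had 1279 of 8382 genes (15.3%) at least 2-fold apart and the retinoic acid library 646 of 7973 (8.1%).

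**Figure D1:**
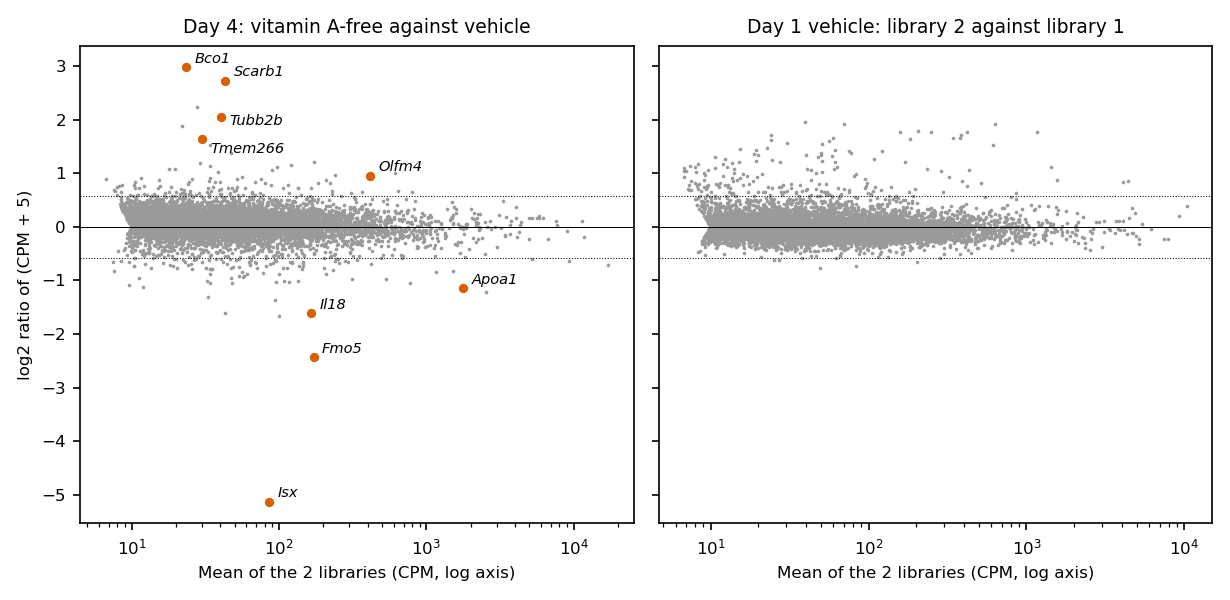
Log2 ratio of CPM + 5 (y axis) against the mean CPM of the 2 libraries (x axis, log scale), 1 point per gene at the 10 CPM floor, for vitamin A-free medium against vehicle at day 4 (left) and day-1 vehicle library 2 against library 1 (right). Dotted lines mark 1.5-fold, and Isx at -5.13 and Bco1 at 2.98 lie beyond the largest absolute ratio of the day-1 pair, 1.95.

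Besides direction, the largest single differences separated the comparisons. The largest absolute log2 ratio between the day-1 libraries was 1.95, and 6 genes (0.0733%) exceeded it on vitamin A-free medium, among them Isx, Bco1, Scarb1, Tubb2b and Fmo5. The 99th percentile of the day-1 pair was 0.87 (1.83-fold), which 28 genes passed upward (0.342%) and 30 downward (0.367%). For vitamin A-free medium against vehicle the 99th percentile was lower, at 0.78, so by this measure the day-1 pair was the wider. With TMM factors the 99th percentile was 0.82 in either comparison. By the median absolute log2 ratio (0.14 against 0.11 at day 1) and its 95th percentile (0.48 against 0.41), the vitamin A-free comparison was the wider.

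Isx, on chromosome 8 (GRCm38, 74873173 to 74893506, plus strand), had 3 UMIs on vitamin A-free medium, 1 in each of 3 cells. That is 0.0577 CPM (95% Poisson interval 0.0119 to 0.169, counting error only), against 172 CPM (168 to 175) on vehicle, where 3784 cells held 9036 UMIs. Vehicle thus held 2975 times the level (interval 1018 to 14430). The other libraries had 207 CPM with retinoic acid, 84.1 CPM with the RXR antagonist, and 1.05 and 0.684 CPM at day 1. Isx was thus near 0 on vitamin A-free medium and at day 1, and well above that in the other 3 day-4 libraries.

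Bco1, on chromosome 8 (117095854 to 117133720, plus strand), stood at 45.4 CPM (43.5 to 47.2) without vitamin A and at 1.39 CPM (1.09 to 1.74) on vehicle, 32.7-fold higher (25.9 to 41.9). The remaining libraries held 0.921 CPM with retinoic acid, 0.466 CPM with the antagonist, and 3.46 and 5.92 CPM at day 1. The vitamin A-free library was the highest of the 6.

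Scarb1, on chromosome 5 (125277087 to 125341094, minus strand), stood at 78.8 CPM (76.4 to 81.2) against 7.64 CPM (6.91 to 8.42), 10.3-fold higher (9.30 to 11.5). It was at 2.87 CPM with retinoic acid, 10.4 CPM with the antagonist, and 40.7 CPM in each day-1 library. The day-1 libraries thus lay above the other 3 day-4 libraries, and the vitamin A-free library above all. All 9 alternative settings kept these 3 genes at least 1.5-fold apart in the same direction, with log2 ratios from -7.35 to -5.10 for Isx, 2.85 to 4.28 for Bco1 and 2.59 to 3.21 for Scarb1. Many smaller differences did not hold under 1 alternative, chosen after seeing the data. It gave each cluster of cells its mean share in the 2 libraries. Of 87 named genes 1.5-fold apart, some of them under the floor, 37 stayed so at these equal cluster shares.

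**Figure D2:**
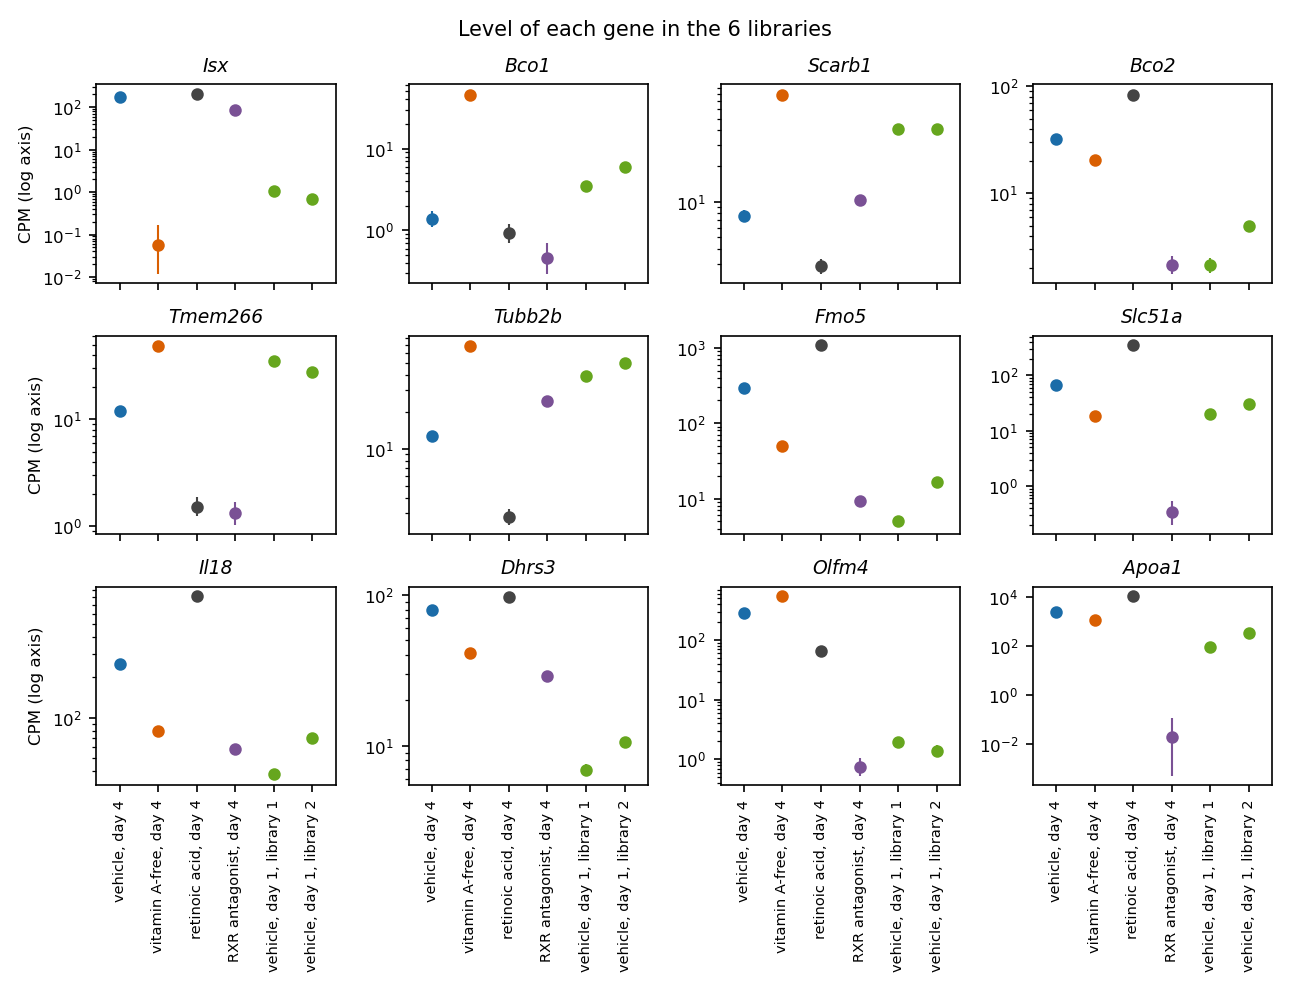
CPM (y axes, log scale) of 12 genes in the 6 libraries (x axis), with exact 95% Poisson intervals of the counting error. Isx is at 0.0577 CPM on vitamin A-free medium against 172 on vehicle, and Bco1 and Scarb1 are highest in the vitamin A-free library.

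Tubb2b and Fmo5, also past the day-1 maximum, act outside carotenoid uptake. Tubb2b, a beta-tubulin, was at 68.1 against 12.6 CPM, 5.41-fold higher (4.97 to 5.88), with 39.3 and 49.5 CPM at day 1. Fmo5, a flavin monooxygenase, was at 50.5 against 293 CPM, 5.81-fold lower (5.57 to 6.05), with 1096 CPM under retinoic acid, 9.38 CPM under the antagonist, and 5.00 and 16.4 CPM at day 1.

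Of the 15 highest genes, Tmem266, a membrane protein, followed at 48.2 against 11.97 CPM, 4.02-fold higher (3.69 to 4.40), with 35.3 and 28.0 CPM at day 1. Ttr, the transthyretin that carries retinol with its binding protein in blood, was at 70.5 against 23.9 CPM, and Ang4, an antimicrobial ribonuclease of Paneth cells, at 52.6 against 15.0 CPM. Foxq1, a forkhead factor, was at 42.6 against 15.9 CPM, and Klhl23 at 28.7 against 10.98 CPM. Nupr1 (136 against 59.6 CPM), S100a6 (123 against 55.9 CPM) and Emp2 (26.1 against 9.80 CPM) were higher too, and each stood far higher with the antagonist, at 1172, 3097 and 207 CPM. Reg4 was at 48.4 against 19.4 CPM. Ang4, Ttr, Nupr1 and Reg4 also lay at least 1.5-fold apart between the day-1 libraries (log2 1.60, 1.25, 0.96 and 1.77), unlike Tmem266, Foxq1, Klhl23, Emp2 and S100a6 (log2 from -0.29 to 0.13).

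The hormone genes Gcg and Cck rest on a few cells. Gcg, the proglucagon gene, had 1949 UMIs on vitamin A-free medium and 344 on vehicle, but 1555 of the 1949 came from 1 cell and 98.6% from 5 cells. Cck had 12604 and 5382 UMIs, with 69.1% and 88.4% in 5 cells each. Without likely doublets the log2 ratio of Gcg turned from 1.88 to -1.07 and that of Cck from 1.21 to -0.77, since the removed barcodes held 98.6% and 84.3% of the UMIs of the vitamin A-free library. Removal took a set number of barcodes with the highest doublet scores, 197 without vitamin A and 183 on vehicle. The scoring tool's own cutoff called only 76 and 61, so whether the removed cells were doublets is uncertain. Neither gene is described as different here.

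The 13 lowest genes after Isx and Fmo5 lay from 2.07-fold to 3.603-fold lower. Slc51a, a subunit of the basolateral bile acid exporter, was at 18.6 against 67.0 CPM, with an interval of 3.35 to 3.87. Il18, an epithelial cytokine, was at 78.9 against 251 CPM, 3.18-fold lower (3.07 to 3.29), and Ms4a8a at 45.2 against 153 CPM, 3.395-fold lower (3.24 to 3.56). Papss2, which makes the sulfate donor PAPS, was at 49.996 against 137 CPM, and Entpd8, an ectonucleotidase, at 16.8 against 49.3 CPM. Lypd8, a secreted protein that keeps flagellated bacteria from the epithelium, was at 1516 against 3536 CPM, and Apoa1, an apolipoprotein of chylomicrons, at 1113 against 2455 CPM.
The remaining genes were Adh6a (503 against 1039 CPM), Cdkn2b (74.5 against 158), Sult6b2 (61.3 against 129), Gcnt3 (29.6 against 66.4), G6pc (20.6 against 47.8) and the goblet gene Clca1 (4.35 against 14.8). Each of the 15 lowest genes but Cdkn2b, which stood at 123 CPM, was higher under retinoic acid than on vehicle. The 2 treatments share the vehicle library, so these values are given side by side and not as separate evidence. Of the 15, Isx, Entpd8, Lypd8, Gcnt3, G6pc, Papss2 and Slc51a had log2 ratios between the day-1 libraries from -0.09 to 0.52. The other 8 of the 15 lay at least 1.5-fold apart at day 1 too, from 0.60 for Ms4a8a to 1.79 for Apoa1, and all were higher in library 2.

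The other genes of vitamin A handling moved less. The uptake and cleavage list had 5 members at the floor, 2 higher (Bco1, Scarb1) and 1 lower (Isx), with a median log2 ratio of -0.23 against 0.08 for all genes. Bco2, which cleaves carotenoids off centre, was at 20.4 against 32.6 CPM, a log2 ratio of -0.56, and Npc1l1, a sterol importer, at 83.2 against 98.7 CPM. The fatty acid transporter Cd36 was under the floor in both.

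Among 6 genes of retinol esterification, storage and saturation at the floor, 2 were lower and 1 higher, with a median of -0.45. Rbp2, the cellular retinol-binding protein of enterocytes, was at 4140 against 6250 CPM, 1.51-fold lower (1.501 to 1.52), and the esterase Ces1f at 82.2 against 143 CPM, 1.74-fold lower. Lrat, the enzyme that esterifies retinol, went the other way, at 11.5 against 5.49 CPM, 2.10-fold higher (1.82 to 2.43). Day-1 libraries held 9.34 and 9.73 CPM of Lrat and the retinoic acid library 1.51 CPM. At equal cluster shares the log2 ratio of Rbp2 was -0.22 and that of Ces1f -0.41, and within enterocyte-like cells Rbp2 was 1.22-fold lower. With TMM factors Lrat was at 0.56, short of 1.5-fold. Mttp, which loads lipid on chylomicrons, was at 417 against 599 CPM and the saturase Retsat at 56.1 against 61.1 CPM.

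Of 14 oxidation and reduction genes at the floor, 3 were lower and 0 higher, with a median of -0.27. Dhrs3, a retinal reductase that retinoic acid is known to induce, was at 41.1 against 79.6 CPM, 1.94-fold lower (1.84 to 2.04), with 96.5 CPM under retinoic acid. The aldo-keto reductases Akr1b8 (19.8 against 45.0 CPM) and Akr1b7 (17.1 against 31.1 CPM) were the other 2, and at equal cluster shares Akr1b7 was at -0.40. The retinal dehydrogenase Aldh1a1 was at 198 against 285 CPM and the alcohol dehydrogenase Adh1 at 394 against 588 CPM, both short of 1.5-fold. Rdh7 (217 against 207 CPM), Rdh14 (60.1 against 59.7 CPM) and Rdh10 (26.9 against 29.6 CPM) were nearly equal, and Aldh1a2 had 0 UMIs in all 6 libraries.

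Genes of retinoic acid breakdown gave little to compare. Cyp26a1 and Cyp26c1 had 0 UMIs in both libraries, and Cyp26b1 had 2 UMIs without vitamin A and 16 on vehicle, 7.90 times the level (1.86 to 70.8). The retinoic acid library held 41.9 CPM of Cyp26b1. Ugt2b5, a glucuronosyltransferase, was at 73.4 against 117 CPM, 1.59-fold lower (log2 ratio -0.26 at equal cluster shares), and Cyp2s1 at 72.3 against 71.6 CPM.

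Of 5 binding and transport genes at the floor, 3 were higher and 1, Rbp2, lower. Besides Ttr, these were Rbp4, the plasma retinol-binding protein, at 10.1 against 3.17 CPM, and Fabp5, a fatty acid-binding protein that can carry retinoic acid, at 235 against 131 CPM. Rbp4 and Ttr were also higher in day-1 library 2 than in library 1 (log2 1.01 and 1.25), while Fabp5 was not (-0.20). Of the Rbp4 UMIs on vitamin A-free medium 504 of 527 were in enteroendocrine-like cells, and without likely doublets its log2 ratio was 0.08, so it is not described as different. Fabp5 was at 0.47 at equal cluster shares. Stra6l, a retinol transporter, was under the floor at 7.94 against 3.86 CPM.

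The receptors themselves lay close together. None of 9 receptor and cofactor genes at the floor was 1.5-fold apart, with log2 ratios from -0.17 to 0.29. Rara was at 19.1 against 18.5 CPM, Rxra at 18.5 against 19.7 CPM and Rxrb at 38.6 against 34.1 CPM. Rarg was sparse, with 91 and 133 UMIs, Rarb had 1 UMI in each library, and Rxrg had 0.

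On the list of 26 genes that retinoic acid is known to induce, 9 were at the floor: Isx and Dhrs3 were lower, Lrat was higher, and the median was -0.15. The list was not a clear readout in these organoids. With retinoic acid against vehicle, 10 members were at the floor, 2 at least 1.5-fold higher and 3 lower (median 0.10). Ppard (16.0 against 24.6 CPM), Tgm2 (13.6 against 15.6 CPM) and Cdx1 (169 against 167 CPM) did not reach 1.5-fold on the log2(CPM + 5) scale. Stra8 and Hoxb1 had 0 UMIs in both, so most of the list could not be measured in this epithelium at this depth.

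Gene lists of cell types showed crypt genes higher and general enterocyte genes lower on vitamin A-free medium, while genes of the villus tip were even (10 at the floor, 0 of them 1.5-fold apart, median 0.03). In library sums, fewer cells of a type and less RNA per cell cannot be told apart. Of 16 genes at the floor on the crypt stem cell list, 10 were at least 1.5-fold higher and 1, Clca4b, lower, with a median log2 ratio of 0.62. Clca4b was unlike most of the list under retinoic acid too. There it was higher than on vehicle (log2 0.77), while 14 of 16 list genes were at least 1.5-fold lower. Lgr5, the R-spondin receptor of crypt base stem cells, was at 74.8 against 36.8 CPM, 2.03-fold higher (1.92 to 2.15). Olfm4 stood at 547 against 279 CPM, 1.96-fold higher (1.92 to 2.00). Ascl2, a stem cell factor, was at 24.5 against 12.6 CPM. The Wnt target list, which shares Lgr5, Ascl2, Axin2, Sox9, Rnf43, Znrf3 and Cd44 with the stem list, had 5 of 9 genes higher and 0 lower (median 0.59), with Axin2, the feedback inhibitor of Wnt, at 52.7 against 27.4 CPM. In the day-1 pair the medians of both lists were -0.38 and -0.25.

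Genes of DNA replication and mitosis were each a little higher. All 28 replication genes and all 28 mitosis genes had a positive log2 ratio, but 0 of them reached 1.5-fold, and the medians were 0.41 and 0.39. The helicase subunit Mcm3 was at 76.2 against 51.4 CPM and Top2a at 194 against 138 CPM. At equal cluster shares both medians were 0.01, beside 0.21 for the stem list and 0.23 for the Wnt list. Lgr5, Olfm4, Axin2 and Ascl2 were then at 0.42, 0.35, 0.33 and 0.32, short of 1.5-fold.

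Of 36 enterocyte genes at the floor, 14 were lower and 0 higher, with a median of -0.49, and 32 had a negative ratio. Besides Apoa1, the aminopeptidase Anpep was at 87.8 against 181 CPM, sucrase-isomaltase (Sis) at 1104 against 1947 CPM and Fabp1, a fatty acid-binding protein, at 13071 against 21359 CPM. Not every member was low: Fabp2 was at 2206 against 2167 CPM, and Cps1, the first enzyme of the urea cycle, at 446 against 367 CPM. The same list had 17 of 34 genes higher in day-1 library 2 (median 0.59), so enterocyte genes also varied within 1 group by this much. At equal cluster shares its median on vitamin A-free medium was -0.13, and Sis (-0.43) and Fabp1 (-0.32) were no longer 1.5-fold apart, unlike Apoa1 (-0.73) and Anpep (-0.74).

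Secretory lists were higher, but no more than between the day-1 libraries. Of 10 Paneth genes, 8 were higher and 0 lower (median 0.77), with Lyz1 at 272 against 147 CPM, Itln1 at 823 against 407 CPM and the defensin Defa24 at 791 against 496 CPM. In day-1 library 2 all 10 Paneth genes measured were higher, with a median of 1.11. Of 10 enteroendocrine genes, 5 were higher (median 0.58), among them Gcg and Cck, which turned without likely doublets, against 18 of 18 in the day-1 pair (median 1.51), and of 9 goblet genes, 2 were higher and 1 lower (median 0.53), against 9 of 10 (median 1.45). Muc2 was at 21.4 against 13.02 CPM, a log2 ratio of 0.55. At equal cluster shares the medians of the Paneth, enteroendocrine and goblet lists were 0.40, 0.10 and 0.08, and Lyz1 (0.39), Itln1 (0.51) and Defa24 (0.17) were not 1.5-fold apart. How UMIs were split among the near-identical defensin genes is uncertain.

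Bile acid genes, antigen presentation and transport leaned lower. All 5 genes of bile acid handling at the floor had a negative ratio and 2 were 1.5-fold lower, Slc51a and its partner Slc51b (32.8 against 55.9 CPM). The median was -0.57, against 0.52 in the day-1 pair. All 9 genes of antigen presentation had a negative ratio (median -0.34) and 1 was 1.5-fold lower, the immunoproteasome subunit Psmb8 at 5.50 against 11.4 CPM. Of 15 sugar, peptide and amino acid transporters, 2 were lower, the glucose transporter Slc2a2 (101 against 171 CPM) and the fructose transporter Slc2a5 (47.8 against 79.9 CPM). Of 17 NRF2 targets, 3 were lower (Srxn1, Me1 and Osgin1) and 0 higher. The PPAR and fatty acid oxidation list had 2 lower members, Fabp1 and the thiolase Acaa1b, and 1 higher, of 25 at the floor (median -0.13). At equal cluster shares the medians of the bile acid, antigen presentation and transport lists were -0.26, -0.23 and -0.17, Slc51a stayed 1.5-fold lower (-1.28), and Slc51b, Psmb8, Slc2a2, Slc2a5, Srxn1, Me1, Osgin1, Fabp1 and Acaa1b did not (log2 ratios from -0.55 to -0.26).

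Genes of regenerating and fetal-like epithelium differed little beside the antagonist. Of 8 at the floor, 3 were higher (S100a6, Anxa3 and Ly6e) and 0 lower, with a median of 0.33. Anxa3 was at 16.6 CPM on vitamin A-free medium, 7.70 on vehicle and 825 with the antagonist. Of 6 YAP and TEAD targets 2 were higher, among them Ccn1, a secreted matrix protein, at 48.4 against 24.7 CPM. Anxa3, Ly6e and Ccn1 were short of 1.5-fold at equal cluster shares (0.43, 0.29 and 0.52). None of 25 cholesterol genes was 1.5-fold apart (median -0.09).

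**Figure D3:**
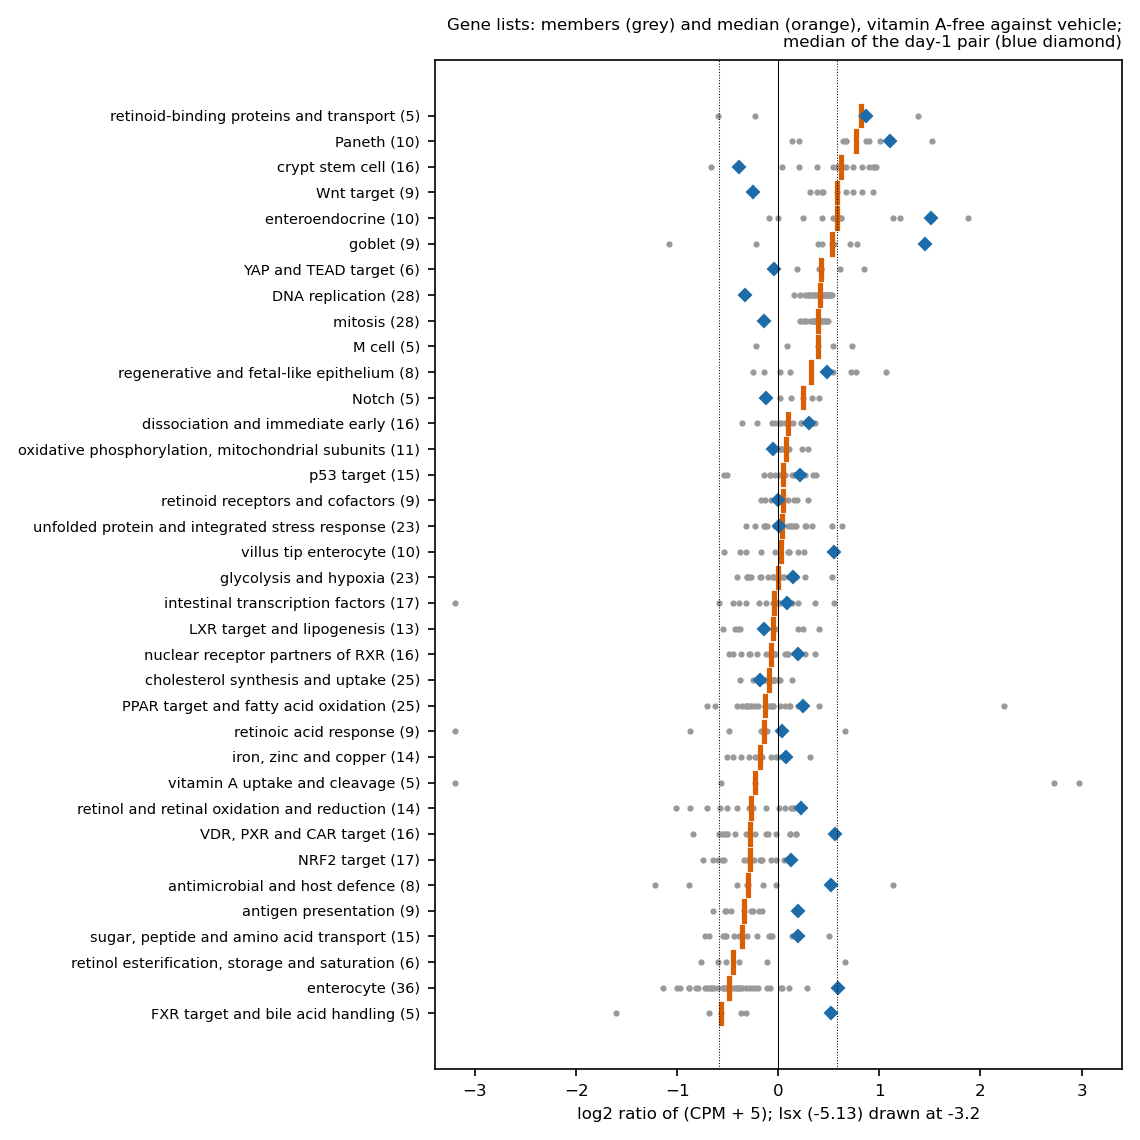
Log2 ratio of CPM + 5 of vitamin A-free medium against vehicle (x axis) for each gene list with at least 5 members at the floor (members as grey points, Isx at the left edge), their median (orange bar) and the median of the same list between the day-1 libraries (blue diamond, absent where too few members were measured). The stem median of 0.62 and its day-1 median of -0.38 lie on opposite sides of 0, while Paneth, goblet and enteroendocrine medians lie below their day-1 medians.

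Clustering of the 9750 cells without the genes 1.5-fold apart and without retinoid genes gave 18 clusters, which were named from marker genes. Stem-like cells made up 11.04% of the vitamin A-free cells (548 of 4963, exact 95% interval 10.2 to 11.9) and 5.66% of the vehicle cells (271 of 4787, 5.02 to 6.35). Enterocyte-like cells made up 19.4% (18.3 to 20.5) and 24.7% (23.5 to 25.9). Intervals cover the sampling of cells only. The stem-like share was the higher and the enterocyte-like share the lower in the vitamin A-free library under each of the 3 other clusterings too, although the shares themselves ranged from 9.87% to 18.8% and from 8.36% to 27.1%. One of these kept all variable genes, with those 1.5-fold apart, and some of its clusters were nearly of 1 library. An enterocyte-like cluster there held 1126 vitamin A-free and 10 vehicle cells, another 9 and 666. The shares of that clustering are therefore not separate support.

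Cycling-like cells were 9.07% against 6.77%, goblet-like cells 4.57% against 3.22% and enteroendocrine-like cells 2.28% against 1.48%. The goblet-like cluster also held Paneth genes (Defa24, Lyz1, Defa30 and Ang4) among its leading genes. Regenerative-like cells were 2.98% against 1.67%, a direction that turned at the coarser resolution (1.07% against 1.32%). Tuft-like cells numbered 8 in each library. Clusters with no name held 50.5% and 56.4% of cells, and 2 of these carried stem and cycling genes (409 and 319 cells, and 574 and 381 cells). Whether such shares vary as much between libraries of 1 group at day 4 was not tested, since each group has 1 library.

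**Figure D4:**
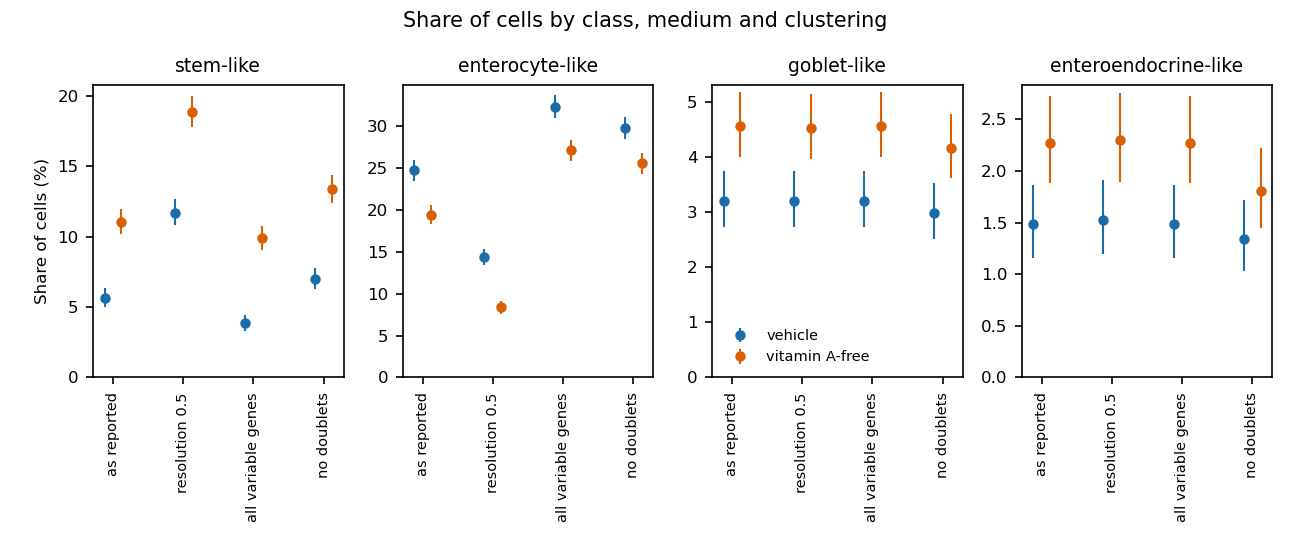
Share of cells (y axes, percent, with exact 95% binomial intervals) in 4 classes on vehicle and vitamin A-free medium, under the reported clustering and 3 alternatives (x axis). In the reported clustering stem-like cells were 11.04% against 5.66% and enterocyte-like cells 19.4% against 24.7%.

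The vitamin A genes lay apart within cell classes as well. In enterocyte-like cells (10471854 UMIs without vitamin A, 14247264 on vehicle), Bco1 was at 129 against 1.05 CPM, 122-fold higher (73.9 to 219). Scarb1 stood at 148 against 2.53 CPM, 58.5-fold higher (42.1 to 83.8). Isx had 0 against 2412 UMIs there (169 CPM), at least 480-fold lower by the exact counting limit (591-fold at an assumed 3 UMIs). Tmem266 was at 45.9 against 2.67 CPM and Fmo5 at 145 against 471 CPM. These folds were larger than in the library sums for Bco1 and Scarb1, and smaller for Fmo5.

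In stem-like cells the order differed. Isx had 0 against 349 UMIs (157 CPM), at least 194.6-fold lower by the same limit (241-fold at 3 UMIs), but Bco1 had only 10 against 3 UMIs and Scarb1 was at 27.9 against 16.2 CPM, 1.72-fold higher (1.18 to 2.56). Tubb2b was at 111 against 30.2 CPM, and Ttr at 167 against 55.9 CPM. Dhrs3 was at 9.16 against 36.5 CPM, 3.99-fold lower (2.72 to 5.94), a larger fold than the 1.36 (1.25 to 1.48) in enterocyte-like cells (78.5 against 107 CPM). Lrat was 2.96-fold higher (2.15 to 4.12) in enterocyte-like cells, at 11.8 against 4.00 CPM, and too sparse in stem-like cells, with 26 and 8 UMIs.

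Of the 111 genes 1.5-fold lower over all cells, 108 reached the floor in enterocyte-like cells. All 108 kept their direction there and 37 stayed 1.5-fold apart. Of the 114 higher genes, 46 reached the floor, all 46 kept their direction and 30 stayed 1.5-fold apart, beside 1.72% of the 7018 genes at the floor in that class. In stem-like cells 90 of 96 higher and 54 of 60 lower genes kept their direction, and 36 and 25 stayed 1.5-fold apart, beside 3.82% of 8462 genes. Direction was kept by 93 of 96 and 95 of 98 in cycling-like cells, and by 94 of 96 and 107 of 107 in unnamed clusters. It was kept by 85 of 100 and 73 of 77 in goblet-like cells. The counts were 82 of 104 and 83 of 88 in enteroendocrine-like cells, and 80 of 90 and 67 of 94 in regenerative-like cells. No share over all genes was counted for direction. Since the genes were chosen on all cells, which include these classes, the counts are a description only.

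**Figure D5:**
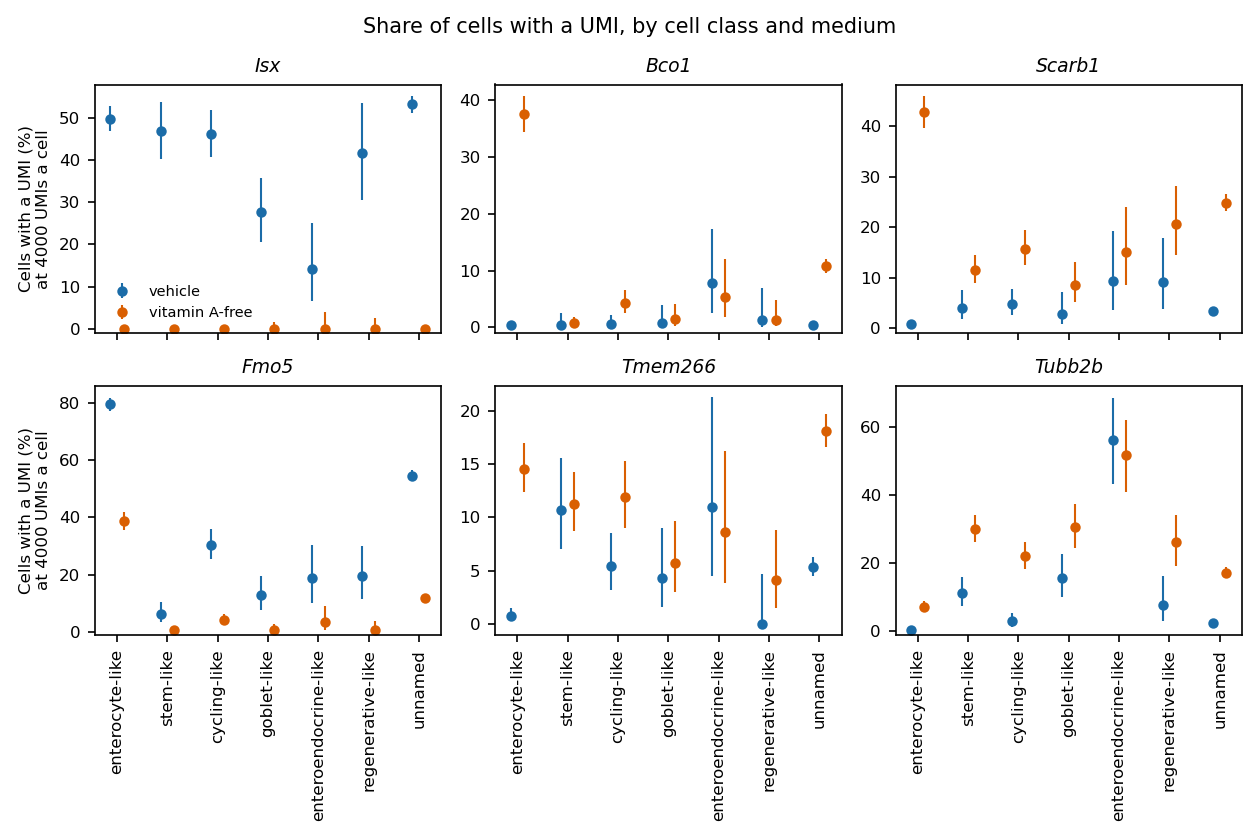
Share of cells with at least 1 UMI (y axes, percent, exact 95% binomial intervals) of 6 genes by cell class (x axis), with each cell thinned to 4000 UMIs. Isx was found in 46.2% to 53.1% of vehicle cells in enterocyte-like, stem-like, cycling-like and unnamed cells and in 0 cells on vitamin A-free medium, and Bco1 was found in 37.6% of enterocyte-like cells on vitamin A-free medium.

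Counts per cell gave the same picture at equal depth, with every cell thinned to 4000 UMIs (4863 cells kept without vitamin A, 100 left out, and 4524 kept on vehicle, 263 left out). Isx was found in 49.9% of vehicle cells and in 0 vitamin A-free cells, and before thinning in 79.0% and 0.0604%. On vehicle the Isx share was near even across enterocyte-like (49.8%), stem-like (46.9%) and cycling-like cells (46.2%) and lower in goblet-like (27.7%) and enteroendocrine-like cells (14.1%, 6.64 to 25.02). In the vitamin A-free library 0 of 956 enterocyte-like cells held an Isx UMI. At an assumed 3 cells, the floor set for counts of 0, the share with a UMI at this depth would be 0.314%. That value is not the limit of an exact interval.

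Bco1 was found in 13.5% against 0.575% of cells (24.5% and 1.42% before thinning). The share on vitamin A-free medium was 37.6% (34.5 to 40.7) in enterocyte-like cells, 10.7% in unnamed clusters and 4.26% in cycling-like cells. It was 0.749% in stem-like and 1.42% in goblet-like cells, which serve as the level in cells not known for using the gene. The median depths of these stem-like and goblet-like cells were 8236.5 and 7484 UMIs, against 10588 for enterocyte-like cells. On vehicle 0.346% of enterocyte-like cells held Bco1. In enteroendocrine-like cells the shares were 5.38% without vitamin A and 7.81% on vehicle, with intervals that overlap.

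Scarb1 was found in 25.03% against 2.98% of cells (47.0% and 7.52% before thinning). Without vitamin A it was broader than Bco1, with 42.8% of enterocyte-like, 24.9% of unnamed, 15.7% of cycling-like, 11.4% of stem-like and 8.49% of goblet-like cells. On vehicle the enterocyte-like share, 0.778%, lay below the stem-like share of 4.02% (1.85 to 7.49). Tmem266 was found in 14.5% against 0.778% of enterocyte-like cells, while in stem-like cells the shares were close (11.2%, 8.68 to 14.2, against 10.7%, 6.99 to 15.5). In UMIs summed over stem-like cells Tmem266 was at 36.4 against 23.5 CPM, 1.55-fold higher (1.13 to 2.16). Fmo5 was found in 38.7% against 79.6% of enterocyte-like cells. Tubb2b was found in 29.96% against 11.2% of stem-like cells. Among the classes scored, which left out the few tuft-like cells, it was most frequent in enteroendocrine-like cells. In these the shares overlapped (51.6%, 41.0 to 62.1, against 56.2%, 43.3 to 68.6).

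Within the vehicle library, cells with and without an Isx UMI did not separate by the genes that were high on vitamin A-free medium. Scarb1 was found in 2.70% (2.07 to 3.46) of 2257 cells with Isx and in 3.26% (2.57 to 4.08) of 2267 cells without. Bco1 was found in 0.487% and 0.662%, and Tmem266 in 4.83% and 3.93%, with intervals that overlap. At 4000 UMIs a cell, a cell with no Isx UMI may still hold the transcript.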

How the data were processed

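RNA of single cells from mouse intestinal organoids was counted on a droplet platform. The authors deposited raw UMI counts for each gene in each cell. The submitters' processing notes name bcl2fastq 2.17, Cell Ranger 3.1.0 and, as genome build, GRCm38. Of the 55335 gene IDs, 54587 matched GENCODE M21, which gave gene positions. Every deposited barcode was kept (the lowest had 1001 genes).

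UMIs were summed per library (or per class) and scaled to CPM. A pseudocount of 5 CPM entered each log2 ratio, which understates the difference of low genes, and a floor of 10 CPM in 1 of the 2 libraries. Folds are ratios of CPM without pseudocount, with exact 95% Poisson or conditional binomial intervals, and shares have exact Clopper-Pearson intervals. UMIs are molecules, so intervals cover counting error only. Genes with 0 UMIs were set to a floor of 3.

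Cells were clustered jointly with scanpy 1.11.5 (1836 variable genes, 30 components, 15 neighbours, Leiden resolution 1.0). A class needed at least 3 of its markers at 2-fold. Doublets were kept, and likely doublets by Scrublet score (0.8% per 1000 barcodes) were removed as an alternative.

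Named genes were the 15 highest and 15 lowest without predicted genes, all members of 7 retinoid lists, and up to 4 members of each other list with the largest absolute ratio, with the sex-linked genes and markers. Of these, 2 genes are not reported here. Others named here are members of the lists and markers, picked after their values were seen. The comparison, its 45 gene lists and markers were chosen with earlier results of these data known. Alternatives were TMM factors (edgeR 4.0.16), DESeq2 1.42.0 size factors, no floor or 50 CPM, a pseudocount of 1, equal weight per cell, doublet removal, thinning, and equal cluster shares. Calculations ran in Python 3.11.15 and R 4.3.3. The ratio script was tested on simulated data.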

Additional observations from a re-analysis of the deposited data

How the results depend on the processing

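Of the 30 highest and lowest genes, 28 stayed at least 1.5-fold apart under all 9 alternatives, the exceptions being Gcg (log2 ratio -1.07) and Cck (-0.77) without likely doublets. Of 87 named genes 1.5-fold apart, some of them under the floor, Gcg and Cck changed sign under an alternative and 32 stayed 1.5-fold apart under all. Among all 296 named genes, most of them closer together, 63 changed sign under at least 1. Of 38 list medians, 22 kept their sign throughout.

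The number of genes at least 1.5-fold and 2-fold apart, 225 and 37, stayed within 1.5 times of these under 6 alternatives. A floor of 50 CPM gave 124 and 24 (86 and 38 in the day-1 pair, against 183 and 67), since fewer genes were counted. A pseudocount of 1 CPM gave 352 and 56, and 103 genes 2-fold apart in the day-1 pair. At equal cluster shares, which used 16 clusters with 99.6% of UMIs and were chosen after seeing the data, 71 and 21 genes remained. Of the 114 higher genes 29 were shared (25.4%, and 90.6% of the 32 found there), and of the 111 lower genes 36 (32.4%, and 92.3% of 39). At equal total UMIs 50.7% of the 225 genes were higher, with TMM factors 22.0% (11 higher and 30 lower at 2-fold) and with DESeq2 factors 21.2% (11 and 33).

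No paired analysis was possible because each group compared has 1 library. Separate cultures, animals and loadings cannot be told apart in these libraries.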

Other observations

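A cluster with no name held 91 cells, 86 of the vehicle library and 5 of the vitamin A-free library, with a median of 2915 UMIs. Its leading genes were Gm26917 and Gm42418. Of the 225 genes 1.5-fold apart over all cells, 12 were predicted genes and are not named. Of 113 enteroendocrine-like cells on vitamin A-free medium 22 scored as likely doublets, and 7 of 71 on vehicle.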
